A study of Mus musculus with 8 samples.

Results

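The collagen genes were defined as the rows whose gene symbol is Col followed by a number, the letter a and a number, and the table held 43 of them among 22520 protein-coding genes. Col26a1 is listed under an older symbol, Emid2, and was therefore not counted. Expression was measured by mRNA-seq in 8 libraries, 4 from WT mice and 4 from LRP1 eKO mice, of cells labelled as liver microvesicular cells of C57BL/6 mice at postnatal day 14. WT mice were LRP1 f/f; Cdh5-CreER-/- littermates and LRP1 eKO mice were LRP1 f/f; Cdh5-CreER+/-, so that both groups carried the floxed Lrp1 allele and the groups differed in the Cre transgene. The Cdh5 promoter drives the inducible Cre, and the paper describes the resulting loss of Lrp1 as specific to endothelial cells. The cells had been selected with beads coated with an antibody to PECAM-1. How recombination was induced is not given in the sources used here for these mice, and nothing in the labels says whether libraries of a group came from separate animals. The p-values below therefore measure the spread between libraries, which may be technical.

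Collagens are secreted proteins made of 3 alpha chains wound into a triple helix. Fibrillar collagens of types I, III, V and XI assemble into the banded fibrils of connective tissue, in which types V and XI are minor components that regulate fibril diameter. Type IV collagen forms the network of basement membranes, type VI forms beaded filaments, type VIII forms lattices below some endothelia, and FACIT collagens bind to the surface of fibrils. In liver, hepatic stellate cells are the best known source of fibrillar collagen, and endothelial cells contribute to type IV collagen.

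The values are a quantile-normalized signal, whose unit before normalization is not stated, and the depth of the libraries is unknown. Lrp1, the targeted gene, had a signal between 56.2 and 85.1 in WT libraries and between 2.16 and 6.01 in LRP1 eKO libraries. The labelled cell type was only partly reflected by markers. Cdh5 and Pecam1, which define endothelium, lay between 1.26 and 4.99, and 1 of 10 endothelial markers had a mean signal of at least 10. How Lrp1 fell to 6.74% of its WT mean in libraries with so little Cdh5 was not tested. Of 6 mesothelial markers, 5 had a mean of at least 10, with Msln between 837 and 1370. The groups are therefore called WT and LRP1 eKO libraries and not endothelial cells below. Within groups, libraries correlated at 0.985 to 0.998 across genes (Pearson's r of log2 signal, with genes that are not independent replicates), but WT 4 was farthest from its group's median for 22 of 25 tested collagen genes and lowest of its group for 19. LRP1 eKO 2 was lowest of its group for 21 of the 25.

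Promoter windows from RefSeq on GRCm38.p6 (mm10), which run from 250 bases before to 50 after an annotated start, were matched to 35 of the 43 collagen genes. The windows of 3 genes called different between genotypes, and of the Col4a1 and Col4a2 pair that led the type IV levels, are printed 5′ to 3′, with matches to the motifs CCAAT and GGGCGG on either strand in capitals.

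Col11a1 promoter, chr3:114030290-114030589, plus strand: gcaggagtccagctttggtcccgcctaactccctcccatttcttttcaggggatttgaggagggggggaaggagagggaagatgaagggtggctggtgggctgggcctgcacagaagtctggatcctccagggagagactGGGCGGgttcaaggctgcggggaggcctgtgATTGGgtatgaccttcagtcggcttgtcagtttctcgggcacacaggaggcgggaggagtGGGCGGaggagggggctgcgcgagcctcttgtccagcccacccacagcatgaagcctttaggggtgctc
Col5a1 promoter, chr2:27886175-27886474, plus strand: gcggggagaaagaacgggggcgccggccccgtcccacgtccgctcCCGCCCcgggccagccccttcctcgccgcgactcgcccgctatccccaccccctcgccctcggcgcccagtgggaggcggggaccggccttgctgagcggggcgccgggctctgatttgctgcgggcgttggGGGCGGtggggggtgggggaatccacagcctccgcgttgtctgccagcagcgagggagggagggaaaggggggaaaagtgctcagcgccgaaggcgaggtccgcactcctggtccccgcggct
Col8a2 promoter, chr4:126286544-126286843, plus strand: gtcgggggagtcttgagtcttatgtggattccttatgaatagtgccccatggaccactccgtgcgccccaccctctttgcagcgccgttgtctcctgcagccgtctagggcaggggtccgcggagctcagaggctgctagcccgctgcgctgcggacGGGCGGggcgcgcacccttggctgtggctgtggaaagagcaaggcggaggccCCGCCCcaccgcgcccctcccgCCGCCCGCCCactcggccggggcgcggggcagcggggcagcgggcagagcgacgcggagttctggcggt
Col4a1 promoter, chr8:11312777-11313076, minus strand: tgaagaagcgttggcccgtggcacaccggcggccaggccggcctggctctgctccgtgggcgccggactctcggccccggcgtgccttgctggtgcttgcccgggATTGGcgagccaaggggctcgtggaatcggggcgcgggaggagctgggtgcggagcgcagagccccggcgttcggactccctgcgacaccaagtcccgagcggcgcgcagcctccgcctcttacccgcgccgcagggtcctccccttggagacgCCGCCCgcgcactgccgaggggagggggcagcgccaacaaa
Col4a2 promoter, chr8:11312555-11312854, plus strand: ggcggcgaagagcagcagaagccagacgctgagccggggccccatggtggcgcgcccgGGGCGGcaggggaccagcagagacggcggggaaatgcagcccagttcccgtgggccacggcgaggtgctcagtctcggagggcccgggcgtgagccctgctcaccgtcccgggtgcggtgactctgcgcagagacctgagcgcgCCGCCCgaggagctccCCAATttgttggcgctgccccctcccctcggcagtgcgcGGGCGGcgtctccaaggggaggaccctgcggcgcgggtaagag

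Col4a1 and Col4a2 lie head to head on chromosome 8, and their annotated starts are 21 bases apart. Their windows, shown on opposite strands, share 78 bases from 11312777 to 11312854. The letters GGGCGG or their reverse complement were found in windows of 22 of the 35 collagen genes, and in 35.7% of all 32851 windows. CCAAT or its reverse complement was found for 13 collagen genes and in 37.4% of all windows. TATAAA was found for 5 genes (13.6% of all windows), CATTCC for 5 (14.7%) and TGACTCA, on either strand, for 1 gene, Col6a1 (5.20%). Each motif was counted on its own, also where it overlapped another. Collagen counts are of genes with a match in any of their windows (38 windows for the 35 genes), whereas background shares are of windows. A match describes the sequence only.

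A few collagen genes were abundant in these libraries and many were near 0. In WT libraries they made up 0.822% ± 0.103 of the summed signal of all genes, against 0.831% ± 0.0776 for LRP1 eKO (SD, 4 libraries each), with a range from 0.667% in WT 4 to 0.919% in LRP1 eKO 3. A mean signal of at least 100 was reached by 6 genes, of at least 10 by 16, and 18 were below 1. Col4a1, which encodes the alpha1 chain of type IV collagen, ranked 56 among all genes in the table, and the lowest of the leading 6, Col3a1, ranked 249.

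**Figure D1:**
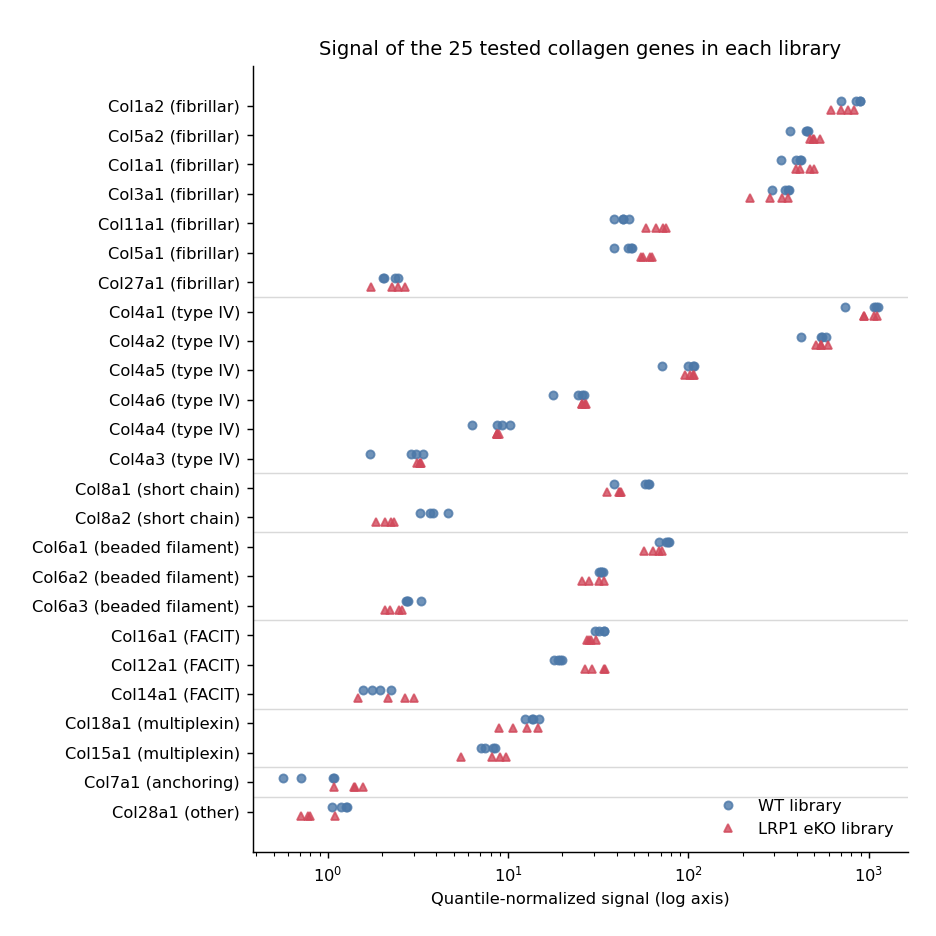
Quantile-normalized signal (log axis) of the 25 collagen genes that passed the filter on low signals, by collagen class, with 1 point per library (circles, WT; triangles, LRP1 eKO). Col4a1 lay between 735 and 1127 and Col28a1, the lowest mean, between 0.710 and 1.28. The genotypes separate for Col11a1, Col12a1, Col5a1, Col5a2, Col7a1, Col8a2 and Col6a3.

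By class, fibrillar chains contributed 52.3% ± 1.58 (SD, n = 4) of the summed collagen signal of WT libraries, against 52.0% ± 1.07 (n = 4) for LRP1 eKO. The 6 type IV chains contributed 41.4% ± 1.99 and 42.4% ± 1.16. These 2 classes therefore accounted for most of the collagen signal in both genotypes, and their shares differed by less than the spread between libraries. The order of the 2 classes was kept when each signal was divided or multiplied by the gene's exon length, with a fibrillar share over all libraries of 54.1% and 50.1% against 52.2% as deposited.

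The smaller classes were less evenly matched. Short chain collagens (types VIII and X) contributed 1.45% ± 0.0796 in WT and 1.05% ± 0.0481 in LRP1 eKO libraries. Beaded filament collagens (type VI) contributed 2.82% ± 0.286 and 2.42% ± 0.0450. FACIT collagens contributed 1.38% ± 0.140 and 1.57% ± 0.0180, and multiplexins (types XV and XVIII) 0.542% ± 0.0690 and 0.487% ± 0.0636. No test was made of these shares, which are described only.

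The genotype difference was tested with limma on log2(signal + 1) for 11391 genes, those at or above a signal of 1 in 4 or more of the 8 libraries, and was called at a Benjamini-Hochberg adjusted p below 0.05. Of the 43 collagen genes, 25 entered this test. The signal was higher in LRP1 eKO libraries for 4 of them (16%), Col11a1, Col12a1, Col5a1 and Col7a1, and lower for 6 (24%), Col8a2, Col8a1, Col28a1, Col6a3, Col6a1 and Col16a1. Among all genes tested, 19% were higher and 22.2% lower, so that the 10 collagen genes called (40%) stood against 41.2% of all genes. Of these 10, Col7a1 and Col28a1 had entered the test mainly through the group in which they were higher. The groups did not overlap for 7 collagen genes (28%), against 42.6% of all genes tested. No tested collagen gene reached a 2-fold change at any p in limma. Among all genes tested 1.66% were called at that size, so 0 of 25 does not set collagen genes apart. The log2 fold changes ran from -0.63 to 0.67, with a median of 0.03 against -0.0095 over all genes tested. The number of downregulated genes depended on single libraries. Leaving out WT 1, WT 3, LRP1 eKO 1, LRP1 eKO 2 or LRP1 eKO 4 kept 1 of its genes, Col8a2, and leaving out WT 2 kept 2, Col8a2 and Col16a1. Without WT 4, 6 genes were lower (Col1a2 in place of Col6a3), and without LRP1 eKO 3, 7 were lower, the 6 and Col18a1. The log2(signal + 1) scale understates changes of low signals.

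**Figure D2:**
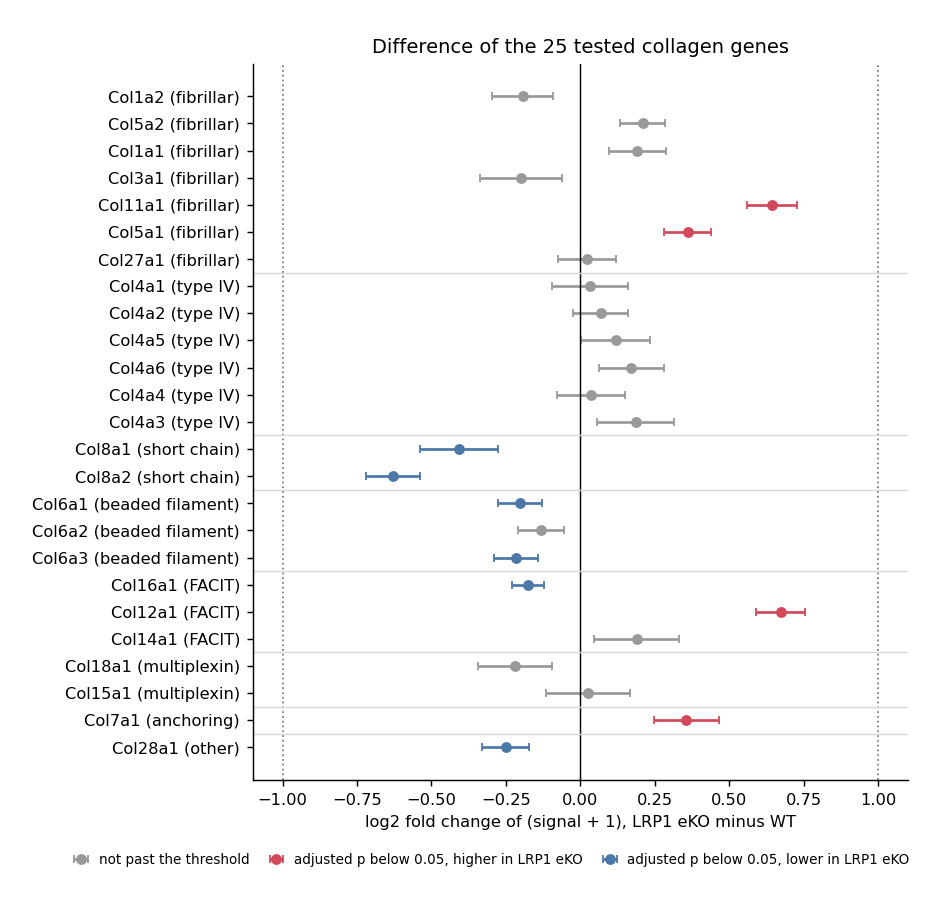
Log2 fold change of (signal + 1), LRP1 eKO minus WT, for the 25 tested collagen genes, with points for the limma estimate and bars for its standard error. Red points were higher and blue points lower at an adjusted p below 0.05, grey points were not called, and the dotted lines mark a 2-fold change, which no gene reached.

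The fibrillar collagens held 2 of the 4 upregulated genes, both minor fibril chains. Col11a1 (chromosome 3 of GRCm38, 114030540 to 114220718, plus strand) encodes the alpha1 chain of type XI collagen, a chain best known from cartilage. Its signal was 43.3, 43.2, 46.8 and 38.5 in WT libraries and 72.1, 58.3, 74.7 and 66.3 in LRP1 eKO libraries. Every LRP1 eKO library was above every WT library, and the log2 fold change was 0.64 (SE 0.083, limma adjusted p = 3.0e-04). The mean was 1.58 times that of WT. An exact permutation test, two-sided, gave p = 0.0286, the smallest that 4 libraries against 4 allow, as it did for each of the 7 tested collagen genes without overlap. Of 8 chondrocyte markers, 0 reached a mean signal of 1 and entered the test, and their summed signal ran from 0.915 to 1.03 for WT and from 0.957 to 1.13 for LRP1 eKO. Within that sum Sox9, which other cells also express, was higher (0.633 to 0.926) and Comp lower (0.173 to 0.0609) in limma without filter (adjusted p = 0.0060 and 0.037). The part of cartilage RNA in Col11a1 was not tested.

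Col5a1 (chromosome 2, 27886425 to 28039514, plus strand) encodes the alpha1 chain of type V collagen, which can assemble with type XI chains. Its signal was 46.2, 48.8, 47.9 and 38.6 in WT libraries and 62.8, 54.3, 60.8 and 55.9 in LRP1 eKO libraries. The groups did not overlap (log2 fold change 0.36, SE 0.078, limma adjusted p = 0.0054). Its partner Col5a2, the fourth most abundant collagen transcript, had a signal of 449.7, 453, 459.9 and 366 in WT libraries and 490.25, 469, 536 and 496 in LRP1 eKO libraries. The groups did not overlap here either, but the difference of 0.21 (SE 0.076) missed the threshold (limma adjusted p = 0.052). It passed in 6 of 18 alternatives, including that without WT 4 (0.13, limma adjusted p = 0.047).

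The most abundant fibrillar chains did not pass the threshold. Col1a2 (chromosome 6, 4504814 to 4541544, plus strand), the alpha2 chain of type I collagen, had a signal of 889, 889, 851 and 701 in WT libraries and 769.75, 616, 827 and 703 in LRP1 eKO libraries. The groups overlapped (log2 fold change -0.19, SE 0.10, limma adjusted p = 0.15). Without WT 4 the difference was -0.27 and passed (limma adjusted p = 0.036). Col1a1 (chromosome 11, 94936224 to 94953042, plus strand), the alpha1 chain, had a signal of 414, 423, 394 and 326 in WT libraries and 469, 392, 499.97 and 416 in LRP1 eKO libraries. The groups overlapped as well (0.19, SE 0.097, limma adjusted p = 0.14).

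Although neither chain of type I collagen was called, the ratio of the 2 signals separated the genotypes. Col1a1 over Col1a2 was 0.465, 0.476, 0.463 and 0.465 in WT libraries and 0.610, 0.637, 0.604 and 0.592 in LRP1 eKO libraries. WT 4 and LRP1 eKO 2, whose collagen signals were low, lay with their groups in this ratio. The ratio is of signals whose unit before normalization is not stated, so that it is no count of molecules, and it is described with no test. The type I trimer usually has 2 alpha1 chains for each alpha2 chain.

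Col3a1 (chromosome 1, 45311538 to 45349706, plus strand), the sole chain of type III collagen, had a signal of 345, 359.6, 355 and 291 in WT libraries and 330.3, 218, 358 and 284 in LRP1 eKO libraries. The groups overlapped, with LRP1 eKO 2 the lowest (log2 fold change -0.20, SE 0.14, limma adjusted p = 0.27). Col3a1 and Col5a2 are neighbors that end toward each other, with 24614 bases between them. Col27a1, a fibrillar chain of cartilage, was between 1.73 and 2.68 in all libraries and was not called (0.02, limma adjusted p = 0.87).

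**Figure D3:**
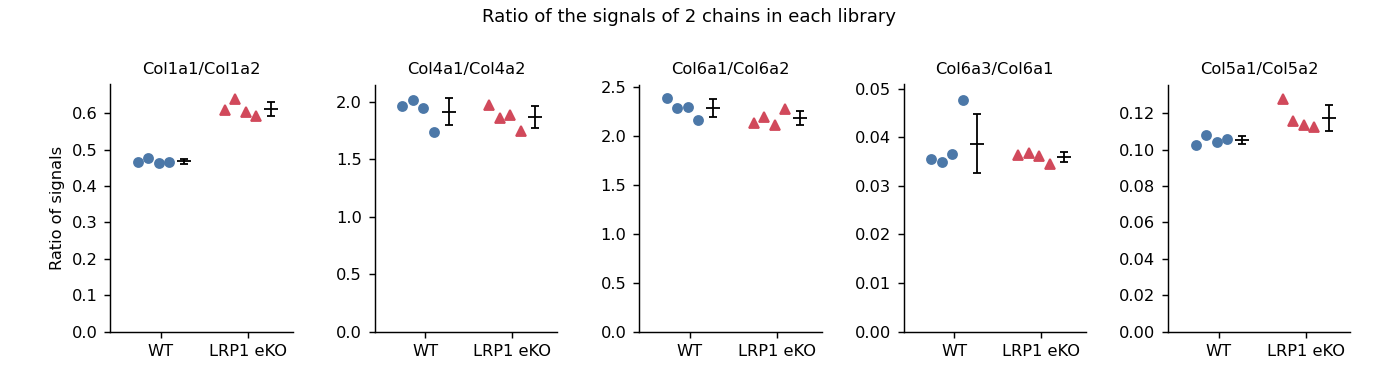
Ratio of the signals of 2 chains in each library (circles, WT; triangles, LRP1 eKO), with the mean and SD of each group (n = 4). The genotypes separate for Col1a1/Col1a2 (0.463 to 0.476 in WT, 0.592 to 0.637 in LRP1 eKO) and for Col5a1/Col5a2 (0.103 to 0.108, 0.113 to 0.128) and overlap for the other 3 ratios.

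Of the 5 ratios set with the design, Col5a1 over Col5a2 also did not overlap, with 0.105 ± 0.00216 for WT and 0.117 ± 0.00721 for LRP1 eKO (SD, n = 4 each). The ratio of Col11a1 to Col5a1, chosen after the values were seen, was 0.949 ± 0.050 and 1.16 ± 0.0651 without overlap. In the deposited signal, Col11a1 was thus the lower of the 2 chains in every WT library and the higher in every LRP1 eKO library. Since the unit before normalization is not stated, this order of the 2 chains is no comparison of molecules.

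None of the 6 type IV genes passed the threshold in limma, and 0 of the 6 had an unadjusted p under 0.05. They are arranged as 3 head-to-head pairs: Col4a1 and Col4a2, Col4a3 and Col4a4 with starts 72 bases apart on chromosome 1, and Col4a5 and Col4a6 with starts 1309 bases apart on chromosome X. Col4a1 (chromosome 8, 11198423 to 11312826, minus strand) had a signal of 1063, 1099, 1127 and 735 in WT libraries and 1071, 942, 1111 and 947 in LRP1 eKO libraries. WT 4 was low and the other WT libraries lay among or near the LRP1 eKO libraries (log2 fold change 0.03, SE 0.13, limma adjusted p = 0.85). Col4a2, its partner in the common trimer, had a signal of 543, 547, 581 and 423 in WT libraries and 543, 507, 591 and 543 in LRP1 eKO libraries (0.07, SE 0.093, limma adjusted p = 0.58). Quantile normalization gave WT 1, LRP1 eKO 1 and LRP1 eKO 4 the same value, since Col4a2 held the same rank in them. The direction of Col4a1 turned without WT 4, to -0.11 (limma adjusted p = 0.20), and that of Col4a2 to -0.03 (limma adjusted p = 0.67).

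The other pairs were lower in level. Col4a5 had a signal of 99.6, 105, 107 and 71.3 in WT libraries and 106, 95.9, 107 and 102 in LRP1 eKO libraries, with WT 4 apart from the overlapping rest (0.12, SE 0.12, limma adjusted p = 0.43). Col4a6 had means of 23.6 ± 4.03 and 26.3 ± 0.660, Col4a4 of 8.62 ± 1.67 and 8.74 ± 0.120, and Col4a3 of 2.76 ± 0.727 and 3.21 ± 0.0592 in WT and LRP1 eKO libraries. All 3 overlapped between groups. Col4a1 over Col4a2 averaged 1.91 ± 0.120 for WT and 1.86 ± 0.0942 for LRP1 eKO, with overlap. For the other 2 pairs, ratios chosen after the values were seen did not overlap, with Col4a5 over Col4a6 at 4.06 ± 0.0259 and 3.90 ± 0.134 and Col4a4 over Col4a3 at 3.18 ± 0.326 and 2.72 ± 0.0857.

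Both tested type VIII genes were downregulated. These short chains form hexagonal lattices, as in the subendothelium and in the Descemet membrane of the cornea. Col8a2 (chromosome 4, 126286793 to 126314330, plus strand) had a signal of 3.26, 3.83, 3.68 and 4.61 in WT libraries and 2.32, 1.86, 2.24 and 2.07 in LRP1 eKO libraries. All LRP1 eKO libraries were below all WT libraries, and the mean fell to 55.2% of that of WT (log2 fold change -0.63, SE 0.090, limma adjusted p = 5.5e-04). This gene was chosen after its values were seen, as were Col12a1, Col6a3, the less abundant type IV genes and, except for Col23a1, the genes below the filter.

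Col8a1 (chromosome 16, 57624258 to 57754737, minus strand) had a signal of 59.9, 60.6, 57.7 and 38.8 in WT libraries and 41.5, 35.5, 42.5 and 41.2 in LRP1 eKO libraries. The first 3 WT libraries lay above all LRP1 eKO libraries, and WT 4 lay among them (-0.41, SE 0.13, limma adjusted p = 0.032). Without WT 4 the difference was -0.56 (limma adjusted p = 2.0e-04), while leaving out any of 6 other libraries gave an adjusted p above the threshold, up to 0.082. WT 4 was the lowest WT library for Col8a1 and the highest for Col8a2, and the ratio of Col8a1 to Col8a2 was 8.43 in it against 15.7 to 18.4 in the other WT and 17.9 to 19.9 in the LRP1 eKO libraries.

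Of the 3 tested type VI genes, Col6a1 and Col6a3 were called lower and Col6a2 was not called. Col6a1 (chromosome 10, 76708792 to 76726168, minus strand) had a signal of 78.2, 77.2, 75.2 and 68.7 in WT libraries and 68.3, 56.5, 71.5 and 63.9 in LRP1 eKO libraries. The groups overlapped through WT 4, and the difference lay at the threshold (log2 fold change -0.20, SE 0.074, limma adjusted p = 0.0498), with a pass in 8 of 18 alternatives. Col6a3, the long alpha3 chain of the trimer, was far lower in level. Its signal was 2.78, 2.698, 2.74 and 3.28 in WT libraries and 2.48, 2.08, 2.58 and 2.21 in LRP1 eKO libraries, without overlap (-0.22, SE 0.075, limma adjusted p = 0.043, 6 of 17 alternatives). Col6a2 had a signal of 32.7, 33.7, 32.7 and 31.9 in WT libraries and 32.0, 25.8, 33.8 and 28.1 in LRP1 eKO libraries, which overlapped, and did not pass (-0.13, SE 0.077, limma adjusted p = 0.19). Col6a1 over Col6a2 was 2.28 ± 0.0959 and 2.18 ± 0.0719, and Col6a3 over Col6a1 was 0.0387 ± 0.00606 and 0.0360 ± 0.000995, both with overlap.

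**Figure D4:**
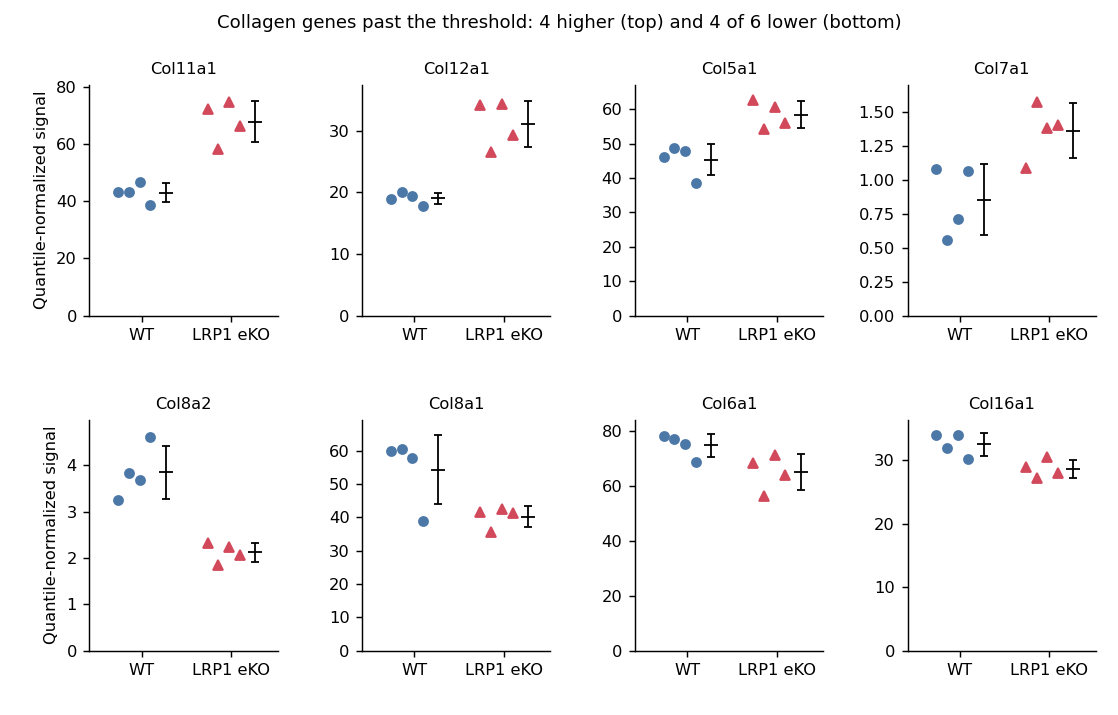
Quantile-normalized signal per library (circles, WT; triangles, LRP1 eKO) with the mean and SD of each group (n = 4), for the 4 collagen genes higher in LRP1 eKO libraries (top) and 4 of the 6 lower ones (bottom). Col11a1 lay at 38.5 to 46.8 in WT and 58.3 to 74.7 in LRP1 eKO libraries, and WT 4 lay among the LRP1 eKO libraries for Col8a1.

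FACIT genes moved in opposite directions. Col12a1 (chromosome 9, 79598991 to 79718831, minus strand), a fibril-associated collagen of tendon, ligament and fascia, had a signal of 18.9, 19.99, 19.4 and 17.9 in WT libraries and 34.1, 26.6, 34.3 and 29.3 in LRP1 eKO libraries. All LRP1 eKO libraries lay above all WT libraries, with a mean 1.63 times that of WT (log2 fold change 0.67, SE 0.082, limma adjusted p = 2.0e-04). This was the highest fold change of the tested collagen genes. Col16a1 had a signal of 34.0, 31.9, 34.0 and 30.3 in WT libraries and 29.0, 27.3, 30.6 and 28.0 in LRP1 eKO libraries. The groups overlapped narrowly between WT 4 and LRP1 eKO 3 (-0.18, SE 0.055, limma adjusted p = 0.028, 13 of 18 alternatives). Col14a1, a relative of Col12a1, had means of 1.87 ± 0.280 and 2.32 ± 0.672 and was not called (0.19, SE 0.14, limma adjusted p = 0.31).

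Multiplexins, which carry an endostatin domain and lie at basement membranes, did not pass. Col18a1 had a signal of 13.8, 13.5, 14.8 and 12.3 in WT libraries and 12.8, 8.87, 14.5 and 10.6 in LRP1 eKO libraries, which overlapped (-0.22, SE 0.13, limma adjusted p = 0.18). Col15a1 had means of 7.80 ± 0.662 and 8.10 ± 1.88 (0.03, SE 0.14, limma adjusted p = 0.90). Both were lowest in LRP1 eKO 2.

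Col7a1, which forms the anchoring fibrils that fasten epithelial basement membranes, was low and upregulated. Its signal was 1.08, 0.560, 0.712 and 1.06 in WT libraries and 1.09, 1.57, 1.39 and 1.41 in LRP1 eKO libraries. The groups were separated by a small gap between WT 1 and LRP1 eKO 1 (0.36, SE 0.11, limma adjusted p = 0.026, 11 of 17 alternatives). WT 2 and WT 3 were below the filter level of 1, so Col7a1 entered the test mainly through LRP1 eKO libraries. Col28a1, a collagen known from peripheral nerve, had a signal of 1.26, 1.18, 1.28 and 1.05 in WT libraries and 0.793, 0.710, 1.10 and 0.779 in LRP1 eKO libraries. The groups overlapped through LRP1 eKO 3, and the gene was called lower (-0.25, SE 0.079, limma adjusted p = 0.030, 11 of 17 alternatives). Only LRP1 eKO 3 of its group reached the filter level of 1, so Col28a1 entered the test mainly through WT libraries.

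Of the remaining 18 collagen genes, which lay below the filter, Col9a1 was listed at 0 in all 8 libraries and the other 17 were fitted with limma on the table without a filter. In that fit 12% of 17959 genes were higher, 15.3% lower, and 32% had no overlap. Of the 17, 3 were called higher (Col5a3, Col24a1, Col22a1), 8 lower (Col6a4, Col6a5, Col6a6, Col9a2, Col23a1, Col2a1, Col25a1, Col19a1) and 6 were not called, and 10 had no overlap. Some of these calls depended on the settings. Col22a1 passed in 7 of 17 alternatives, Col2a1 in 13, Col6a4, Col23a1 and Col19a1 in 15 and Col9a2 in 16. The highest group mean among them was 1.02, so that at an unknown depth each value may rest on few reads.

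The 3 lesser known type VI genes Col6a4, Col6a5 and Col6a6, which encode chains that can take the place of the alpha3 chain, lie in a row on chromosome 9 between 105687809 and 106096783, all on the minus strand. Col6a5 had a signal of 0.316, 0.338, 0.350 and 0.618 in WT libraries and 0.0742, 0.0789, 0.0677 and 0.0604 in LRP1 eKO libraries (limma without filter, adjusted p = 0.0032). Col6a6 had a signal of 0.258, 0.372, 0.382 and 0.522 in WT and 0.121, 0.0416, 0.105 and 0.0688 in LRP1 eKO libraries (limma without filter, adjusted p = 0.0028). All LRP1 eKO libraries were below all WT libraries for both genes, and for Col6a4, with means of 0.319 ± 0.0983 and 0.110 ± 0.0589 (limma without filter, adjusted p = 0.016). With a pseudocount of 0.1 and no filter, these were the 3 collagen genes called with a change of at least 2-fold, at -1.01 for Col6a4, -1.53 for Col6a5 and -1.39 for Col6a6, where 2.9% of all genes were and 15.2% were called lower. Their order of size with Col6a1, Col6a2 and Col6a3 was not tested.

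The summed signal of skeletal muscle markers was also lower, at 47.2 to 73.5 in WT and 14.5 to 16.0 in LRP1 eKO libraries, with 6 of 6 tested markers lower and the highest sum in WT 4, the library highest for Col6a5 and Col6a6 but not for Col6a4, which was 0.293 in WT 4 and highest, at 0.453, in WT 3. Among all genes tested, 22.2% were lower. Tnnc2 and Atp2a1 were below the filter level of 1 in every LRP1 eKO library and entered the test only through WT libraries. Ckm, a defining marker, was between 0 and 0.269. The part of muscle RNA in these values was not tested. Col25a1, a transmembrane collagen that acts in motor innervation of muscle, had a signal of 0.0557, 0.0840, 0.118 and 0.103 in WT libraries and 0.00614, 0, 0.0186 and 0.00520 in LRP1 eKO libraries. The groups did not overlap (limma without filter, adjusted p = 0.0031).

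Col23a1, the most abundant transmembrane collagen, had a signal of 0.120, 0.171, 0.130 and 0.154 in WT libraries and 0.0986, 0.0589, 0.0871 and 0.0665 in LRP1 eKO libraries, again without overlap (limma without filter, adjusted p = 0.012).

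Among the low fibrillar chains, Col24a1 had a signal of 0.424, 0.506, 0.333 and 0.286 in WT and 0.601, 0.690, 0.592 and 0.659 in LRP1 eKO libraries (limma without filter, adjusted p = 0.011). Col5a3 had a signal of 0.538, 0.705, 0.647 and 0.638 in WT and 0.846, 1.29, 0.915 and 1.02 in LRP1 eKO libraries (limma without filter, adjusted p = 0.015). Both were higher in every LRP1 eKO library than in any WT library. Col2a1, the cartilage collagen, was at most 0.241 in WT and 0.0446 in LRP1 eKO libraries and lower without overlap (limma without filter, adjusted p = 0.029). Osteoblast markers, another class of cells that make fibrillar collagen, summed to 3.64 to 4.74 in WT and 7.92 to 8.74 in LRP1 eKO libraries. Of 4 tested markers, 3 were higher (against 19% of all genes tested) and 1, Alpl, was lower (against 22.2%). Of the 3, Bglap and Bglap2 were below the filter level of 1 in every WT library and entered the test only through LRP1 eKO libraries. Much of the difference came from Runx2 (2.57 to 4.16) and the osteocalcin genes Bglap (0.0831 to 1.65) and Bglap2 (0.0259 to 1.48). The study singled out the osteocalcin genes in these libraries, while Ibsp and Dmp1 were listed at 0 in all of them. The part of such cells in these values was not tested.

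**Figure D5:**
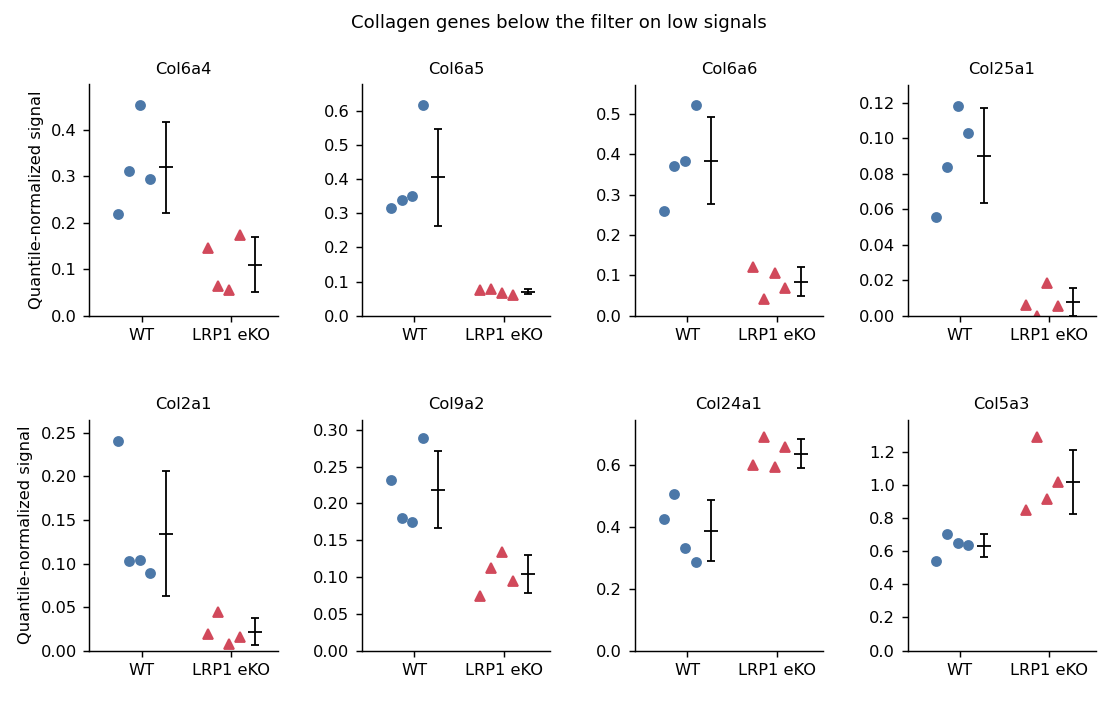
Quantile-normalized signal per library (circles, WT; triangles, LRP1 eKO) with the mean and SD of each group (n = 4), for 8 collagen genes below the filter, each with its own axis from 0. Col6a5 lay at 0.316 to 0.618 in WT and 0.0604 to 0.0789 in LRP1 eKO libraries, and none of the 8 genes overlapped between groups.

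The machinery that makes and handles collagen was examined from 4 lists with 47 genes, of which 38 were tested. Of these, 17 (44.7%) were higher in LRP1 eKO libraries, against 19% of all genes tested, and 5 (13.2%) were lower, against 22.2%. The median log2 fold change of the 38 was 0.13. These lists were chosen with earlier results of these data known, so the shares are described only, with no set test. Of 16 tested enzymes that modify the chains, 7 rose and 2, Crtap and P3h4, fell. P4ha2 and P4ha1, catalytic subunits of prolyl 4-hydroxylase, rose from 26.1 ± 0.757 to 38.0 ± 1.09 (0.52, SE 0.043, limma adjusted p = 1.5e-05) and from 118 ± 5.65 to 152 ± 7.90 (0.36, SE 0.052, limma adjusted p = 5.6e-04). P4hb, the beta subunit of that enzyme and a disulfide isomerase, rose from 551 ± 11.8 to 676 ± 8.88 (0.29, SE 0.037, limma adjusted p = 2.4e-04). Plod2, the lysyl hydroxylase of the telopeptides, rose from 92.6 ± 11.2 to 128 ± 5.55 (0.47, SE 0.083, limma adjusted p = 0.0017). None of these 4 overlapped between groups.

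Of 10 folding and export genes, 4 rose (40%, against 19% of all genes tested), 1 fell (10%, against 22.2%) and 5 were not called. On so few genes these shares are described only. Creb3l1, a transcription factor of the endoplasmic reticulum that drives type I collagen genes in bone, rose from 16.5 ± 0.625 to 22.6 ± 0.768 (0.44, SE 0.047, limma adjusted p = 9.9e-05). Hsp90b1, a chaperone, rose from 346 ± 24.7 to 404 ± 10.2 (0.22, limma adjusted p = 0.0096), and Serpinh1, the collagen chaperone HSP47, from 631 ± 18.7 to 698 ± 17.1 (0.15, limma adjusted p = 0.016). Sparc, a secreted collagen-binding protein, fell from 3696 ± 157 to 3237 ± 154 (-0.19, limma adjusted p = 0.015).

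Of 6 tested propeptide processing genes, 4 rose (66.7%, against 19% of all genes tested) and 1, Pcolce, fell (16.7%, against 22.2%). With so few genes, these shares are described only. Bmp1, the procollagen C-proteinase, rose from 55.3 ± 0.895 to 72.6 ± 6.61 (0.38, SE 0.062, limma adjusted p = 0.0011). Its relative Tll1 rose from 6.10 ± 1.28 to 10.2 ± 0.996 (0.67, limma adjusted p = 0.0029). Pcolce2, an enhancer of the C-proteinase, rose from 3.93 ± 0.573 to 6.62 ± 0.987 (0.63, limma adjusted p = 0.0019), whereas Pcolce, the more abundant enhancer, fell from 109 ± 2.10 to 95.6 ± 3.76 (-0.19, limma adjusted p = 0.0062). Adamts14, an N-proteinase, rose from 3.28 ± 0.222 to 4.24 ± 0.251 (0.29, limma adjusted p = 0.0053).

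Of 6 tested collagen receptors, 2 rose (33.3%, against 19% of all genes tested), 1 fell (16.7%, against 22.2%) and 3 were not called. These shares, too, rest on few genes and are described only. Ddr2, a receptor tyrosine kinase for fibrillar collagen, rose from 15.3 ± 2.40 to 22.0 ± 0.505 (0.51, SE 0.099, limma adjusted p = 0.0029). Itgb1, the shared beta1 integrin chain, rose from 339 ± 39.8 to 395 ± 7.26 (0.23, limma adjusted p = 0.041, 11 of 18 alternatives). Itga10, the integrin chain for type II collagen, fell from 6.45 ± 0.364 to 3.37 ± 0.322 (-0.77, SE 0.069, limma adjusted p = 2.7e-05), the largest change of the 38 genes in size. Ddr1 had means of 139.6 ± 11.96 and 152 ± 12.4 (0.13, limma adjusted p = 0.20).

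Marker lists are given as counts of tested genes called, to be read against 19% higher and 22.2% lower among all genes tested. The hepatic stellate cell and fibroblast list summed to 695 to 749 in WT and 573 to 611 in LRP1 eKO libraries, with 2 of 9 tested markers higher and 5 lower. Of its 14 genes, 6 had a mean signal of at least 10: Dcn, which was highest, Des, Pdgfra, Lum, Pdgfrb and Hand2. Lrat and Reln, which define stellate cells, were below 1, as were Dpt, Ngfr and Lhx2. The smooth muscle and pericyte list summed to 1453 to 1516 in WT and 1798 to 1880 in LRP1 eKO libraries, with 4 of 5 tested markers higher. Of the 4, Myh11 was below the filter level of 1 in every WT library and entered the test only through LRP1 eKO libraries. The mesothelial list summed to 1477 to 1852 and 1908 to 2116, with 1 of 6 higher. The endothelial list summed to 37.9 to 39.7 and 38.9 to 55.1 (2 of 7 higher) and the sinusoidal endothelial list to 37.2 to 40.5 and 38.1 to 60.6 (1 of 5 higher). The sinusoidal marker called, Oit3, was below 1 in every WT library and likewise entered only through LRP1 eKO libraries. Gata4, between 27.7 and 30.8 in all libraries, was the only 1 of 8 sinusoidal markers with a mean signal of at least 10. Macrophage markers summed to 113 to 223 in WT libraries and to between 52.8 in LRP1 eKO 2 and 736 in LRP1 eKO 1, with 1 of 9 higher. Hepatocyte markers summed to 43.3 to 63.6 and 15.4 to 20.2 (3 of 3 lower), cholangiocyte markers to 301 to 356 and 234 to 696 (1 of 3 lower) and Schwann cell markers to 67.7 to 79.0 and 87.4 to 94.6 (1 of 1 higher). In these bulk libraries, fewer cells of a type cannot be told apart from less RNA per cell, and the part of these cells in the collagen values was not tested.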

How the data were processed

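Messenger RNA of 4 WT and 4 LRP1 eKO libraries was sequenced, and libraries were assigned by their labels. The authors deposited a quantile-normalized signal for each gene and library. The submitters' processing notes name TopHat2, Cufflinks and mm10, whereas the paper's methods name other tools and do not describe this table. Quantile normalization removes global shifts between libraries, and no counting error could be computed since depth is unknown. From the deposited signal, log2(signal + 1) was fitted with limma 3.58.1 in R 4.3.3 (genotype as the only term, mean-variance trend), with adjustment over all 11391 genes past the filter. Genes below the filter were taken from a fit of the 17959 genes above 0 in any library. The calculation was tested on simulated data. Class shares and chain ratios are descriptions. Positions came from GENCODE M21 and promoter windows from RefSeq.

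The rule was to name each collagen gene called at 2-fold, the 12 highest, the highest of each class, and 4 genes of each pathway list by smallest adjusted p. P3h4, Crtap, Pcolce, collagen genes outside the rule, marker genes and 4 ratios were chosen after their values were seen. Members and lists were chosen with earlier results of these data known. Alternatives were other pseudocounts, filters, moderation, library weights, centring, a replicate block, gene length, and leaving out libraries.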

Additional observations from a re-analysis of the deposited data

Results flagged for a closer look

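A library stood apart within its group of 4 for 5 of 60 group values examined (25 tested collagen genes and 5 chain ratios in each genotype), measured by its gap to the nearest library divided by the range of the group (Dixon's test at its 95% critical value). Chance would flag about 3 of 60. All 5 were WT 4. It was the lowest WT library for Col4a1 (0.836), Col5a2 (0.892) and Col8a1 (0.865), and the highest for Col6a3 (0.860) and for the ratio of Col6a3 to Col6a1 (0.879).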

How the results depend on the processing

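Col11a1, Col12a1 and Col5a1 passed the threshold in all 18 alternatives and Col8a2 in all 17 in which it was tested, and leaving out each library gave fold changes on the log2 scale of 0.59 to 0.71, 0.62 to 0.74, 0.29 to 0.40 and -0.69 to -0.56. The 4 genes called higher became 7 with no filter (42 genes tested) and 7 without WT 4 and LRP1 eKO 2 together, chosen after seeing the data, and were 3 to 5 when each library was left out. The 6 called lower became 11 with no filter, where Col6a1, Col6a3 and Col8a1 lost their calls (adjusted p = 0.082, 0.069 and 0.069) and 8 genes below the filter were added, 11 with a pseudocount of 0.1 and no filter, and 3 with a minimum mean signal of 5, where 18 genes were tested. Leaving out each library gave 1 to 7 lower, with 1 (Col8a2) without WT 1, WT 3, LRP1 eKO 1, LRP1 eKO 2 or LRP1 eKO 4. The 0 at 2-fold became 3 with a pseudocount of 0.1 and no filter, and stayed 0 when each library was left out. With the replicate number as a block, 3 were higher and 4 lower, and Col7a1, Col6a1 and Col6a3 were lost (adjusted p = 0.057, 0.056 and 0.077). Same-numbered libraries did not deviate together (correlations of -0.13 to 0.18), so the numbers were not treated as pairs. Of the genes below the filter, Col6a4, Col9a2, Col23a1, Col2a1 and Col22a1 were lost with the block in the fit without a filter (adjusted p = 0.059, 0.052, 0.064, 0.0503 and 0.11). Array weights added Col5a2, Col14a1 and Col1a2 and lost Col6a3 (adjusted p = 0.065). Divided by exon length, the type IV share was 39.1% and the fibrillar share 54.1%, and multiplied by it 44.3% and 50.1%.

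Directions turned only for genes that were not called. With array weights Col4a1 was -0.061, Col4a4 -0.068 and Col11a2 -0.0098. Without WT 4 and LRP1 eKO 2 together, Col4a1 was -0.075, Col4a4 -0.087, Col27a1 -0.0033 and Col11a2 -0.016. When each library was left out, Col4a1 ranged from -0.11 to 0.094, Col4a2 from -0.030 to 0.12, Col4a5 from -0.016 to 0.18, Col4a4 from -0.091 to 0.12, Col15a1 from -0.064 to 0.18 (0.22 without both libraries), Col27a1 from -0.036 to 0.11, Col11a2 from -0.035 to 0.13 and Col13a1 from -0.0075 to 0.034. The cause was not tested. Sparc did not pass with no filter (adjusted p = 0.088), nor Serpinh1 without LRP1 eKO 3 (0.056).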
